A study of Arabidopsis thaliana with 3 samples.

Results

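Tubulin isotypes were compared between germinating pollen and seedlings of Arabidopsis thaliana. The isotypes are 7 genes, the alpha-tubulins TUA1 and TUA6 and the beta-tubulins TUB1, TUB5, TUB6, TUB7 and TUB9. They were chosen by symbol in the platform's probe annotation, among genes with a probe set of their own, of which the array has 13350. On the array used, a gene is read by short probes on the glass, grouped into a probe set that gives 1 brightness value, the signal. Each of the 7 genes had 1 such probe set. RefSeq lists 15 alpha- and beta-tubulin genes, so that 2 further genes were read only together, on 1 shared probe set, and 6 were on no probe set listed in the annotation used here.

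The samples were total RNA of Col-0 plants, hybridised to Affymetrix ATH1 arrays, 2 with RNA of germinating pollen and 1 with RNA of seedlings. Pollen from open flowers had been incubated in the dark for 6 h at 25°C on medium with 13.5% sucrose, and about 80% of the grains had germinated. The seedlings were whole plants, roots included, at the stage of the first rosette leaves. Their sample label gives 18 h of light at 22°C and 6 h of dark at 18°C, and the series' design text gives other hours. Plant age and pool size were not given. Each labelling used 10 µg of RNA. Per the sample labels, a lithium chloride precipitation is listed for the pollen RNA and not for the seedling RNA, so that step and the tissue cannot be told apart, although the design text names the step for both. The question of the series was which genes are expressed predominantly in germinating pollen.

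Alpha- and beta-tubulin form the dimer from which microtubules are built, and a separate gamma-tubulin starts new microtubules. Plants carry several genes for each partner of the dimer, and the encoded isotypes are very similar proteins whose genes are used in different tissues. In a pollen tube, tip growth depends mainly on actin, while microtubules lie along the tube and take part in the transport of the sperm cells and in wall deposition. In seedlings, microtubules lie under the plasma membrane and guide cellulose synthesis, and they build the division structures of meristem cells.

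The arrays had the same mean signal after trimming, so each value is relative to the rest of its array. Signals were called dim at or under a floor of 42.3, the pooled median. Control probe sets without a target reached 47.1 and 65.7 on pollen arrays 1 and 2 and 14.3 on the seedling array. The pollen and green tissue marker genes followed the labels. All 7 measured pollen genes of a marker list of 13 were called higher in pollen, summing to 51550 and 51900 on pollen arrays 1 and 2 and to 59.2 in seedlings, and 7 of 8 green tissue genes were called lower, with 209 and 242 against 39599. The root genes did not. EXPA7 (121 and 101 against 22.0, called higher) and EXPA18 (113 and 56.4 against 23.6) were under the floor in seedlings, roots included. Both were above it on both pollen arrays, but EXPA18 was not called and on pollen array 2 lay under the highest control without a target. Among the flower organ genes, SPT, RBE and NGA2 were above the floor and above the seedling on both pollen arrays, while NGA1 was called lower. Root and flower organ signals in pollen lay between 2.81 and 131. The tapetum gene AMS was measured at 8.87 and 49.0 in pollen. Tissue parts were not separated, so fewer cells of a type and less RNA per cell cannot be told apart.

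Germinating pollen and seedlings differed in the makeup of their tubulin signal. TUA1 and TUB9 were far higher in pollen, TUB1 was also higher, and TUA6 and TUB7 were moderately higher. TUB5 was lower in pollen, and TUB6 did not pass the test. With limma over all 14815 tested probe sets and Benjamini-Hochberg adjustment, 5 of the 7 isotypes were called higher in pollen and 1 lower, while 22.1% of all tested probe sets were called higher and 31.7% lower. The median log2 difference of the 7 was 1.56, and that of all tested probe sets was -0.61. All 7 had an unadjusted limma p under 0.05. So had at least the 3280 probe sets called higher and the 4692 called lower of the 14815 tested. The full share of all tested probe sets at that threshold was not computed. Every isotype was above the floor in seedlings and 5 were above it on both pollen arrays, so TUB5 and TUB6 entered the test through the seedling array alone. The p-values rest on the spread between 2 pollen arrays, which may be technical, and the lone seedling array is assumed to vary like them. An exact permutation of 3 arrays could not give a p under 0.333.

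**Figure D1:**
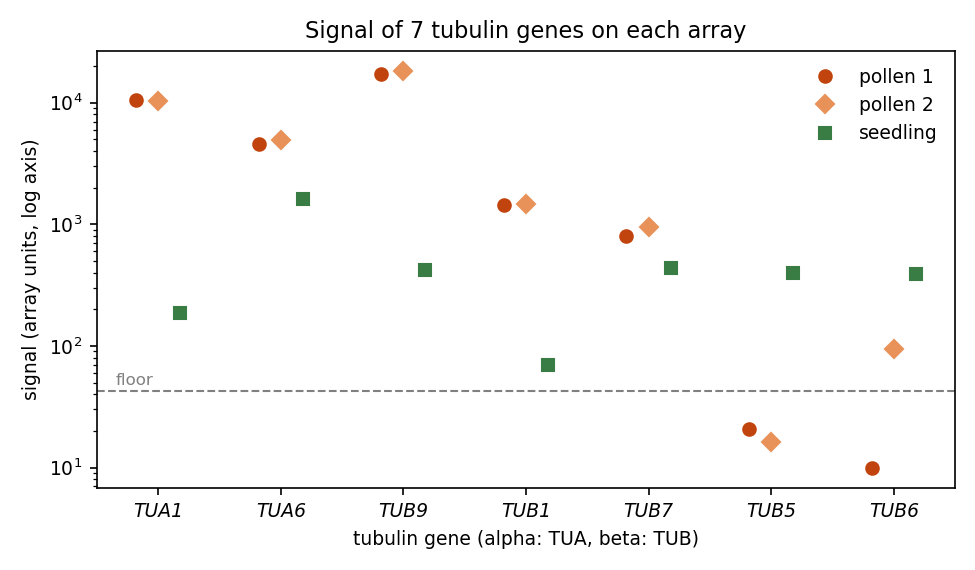
Signal of each tubulin gene on the 3 arrays, on a log axis in array units, with circles and diamonds for the pollen arrays and squares for the seedling array. The dashed line is the floor of 42.3. TUA1, TUA6, TUB9, TUB1 and TUB7 lie higher on both pollen arrays than on the seedling array, and TUB5 and TUB6 lie lower.

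Among the alpha-tubulins, TUA1 (AT1G64740) is known as an isotype of the male flower parts and pollen. Pollen array 1 read 10449 for it, pollen array 2 read 10384, and the seedling array 187. The pollen arrays thus lay almost on top of each other, and both were far above the seedling. Their mean of 10417 ± 46.2 (SD, n = 2) was 55.7 times the seedling signal. The log2 difference was 5.69 (95% interval 5.47 to 5.91, limma adjusted p = 1.56e-05).

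TUA6 (AT4G14960) is an alpha-tubulin of most plant tissues, familiar from the fluorescent TUA6 fusions used to film microtubules. It had signals of 4566 and 4973 in pollen and 1602 in seedlings. Both pollen arrays exceeded the seedling, by 2.85 and 3.10 times. The log2 difference was 1.56 (95% interval 1.30 to 1.82, limma adjusted p = 0.000775). Quantile normalisation reduced that difference to 0.61, and scaling by the hybridisation spikes turned it to -0.74, where it was called lower.

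Within each array, the ratio of TUA1 to TUA6 signal does not depend on linear scaling of the array. It was 2.29 and 2.09 in pollen but 0.117 in the seedling, a shift of 19.6 and 17.9 times. Quantile normalisation, which is not linear, changes the ratio. Under it the log2 differences were 5.66 for TUA1 and 0.61 for TUA6. The ratio itself does not measure how many transcripts of each gene were present, because probe sets differ in brightness for the same amount of RNA. A constant difference in brightness cancels in the shift of the ratio between tissues. Background and cross-hybridisation would not cancel, and their part in the shift was not tested. The shift shows unequal change of the 2 signals, not which of them moved.

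A further probe set is annotated to 2 alpha-tubulin genes other than TUA1 and TUA6 and cannot be assigned to either. Pollen arrays 1 and 2 read 904 and 811 for it, both under the seedling array, which read 1350. The log2 difference was -0.65 (95% interval -0.98 to -0.31, limma adjusted p = 0.0147), but it was -0.08 (adjusted p = 0.655) with arrays scaled to their 75th percentile, and the call was lost without the variance trend (adjusted p = 0.143). Under scaling by the spikes the difference was -2.94. This probe set was read after the values of the 7 genes were known.

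Among the beta-tubulins, TUB9 (AT4G20890) is a beta-tubulin known from pollen. It read 17237 on pollen array 1, 18353 on pollen array 2 and 423 on the seedling array. TUB9 was rank 92 and rank 81 of 22746 probe sets by brightness in pollen, and rank 1875 in the seedling. The pollen mean of 17795 ± 789 (SD, n = 2) was 42.1 times the seedling signal, with a log2 difference of 5.35 (95% interval 5.12 to 5.58, limma adjusted p = 1.95e-05).

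TUB1 (AT1G75780) is known as a beta-tubulin of roots and of dark-grown hypocotyls. The pollen arrays read 1445 and 1475, and the seedling array, which included roots, read 69.8. Pollen values differed little from each other and were 20.9 times the seedling signal on average, which lay above the floor but near it. The log2 difference was 4.12 (95% interval 3.77 to 4.47, limma adjusted p = 0.000114). Among all probe sets of its array, TUB1 stood at percentile 59.4 in the seedling and at percentiles 96.6 and 96.7 in pollen.

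TUB7 (AT2G29550), a further beta-tubulin, had signals of 807 and 949 in pollen and 434 in seedlings. Both pollen arrays were higher, by 1.86 and 2.19 times, the smallest difference among the isotypes called. The log2 difference was 0.99 (95% interval 0.57 to 1.41, limma adjusted p = 0.00866). It was no longer called without the variance trend (adjusted p = 0.0735), and under scaling by the spikes it was -1.28 and called lower.

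TUB5 (AT1G20010) showed the opposite pattern, with 20.8 and 16.3 in pollen and 396 in seedlings. Both pollen signals were under the floor and under the highest control without a target, so pollen has only a bound for this beta-tubulin. The drop of TUB5 in pollen was at least 9.35-fold when measured to the floor. Those controls reached 47.1 and 65.7 on the pollen arrays, above the floor, so a bound measured to them would be smaller. TUB5 entered the test through the seedling array alone, where it is high, so its call (limma adjusted p = 0.00640) is no independent support. Its fitted log2 difference of -3.63 depends on the offset added before the logarithm, being -4.35 with an offset of 1 and -2.70 with an offset of 50, and is no bound.

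TUB6 (AT5G12250), a beta-tubulin whose transcript is known to fall in the cold, had pollen signals of 9.91 and 93.9 and a seedling signal of 387. The pollen arrays differed by 9.47 times, 1 under the floor and 1 above it, and both were under the seedling. The log2 difference was -2.96 with a wide 95% interval of -5.74 to -0.17 (limma adjusted p = 0.0709). Leaving out pollen array 1 gave -1.89 and leaving out pollen array 2 gave -4.03, with no test. Spike scaling (-4.97, adjusted p = 0.0122) and an offset of 50 (-2.23, adjusted p = 0.0412) brought TUB6 past the threshold.

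**Figure D2:**
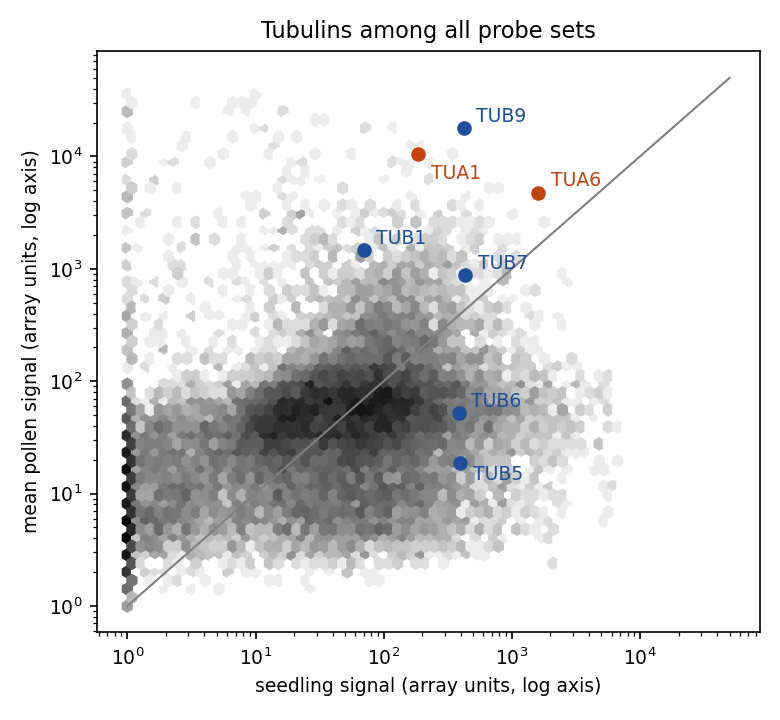
Mean pollen signal against seedling signal for the 7 tubulin genes (orange for alpha, blue for beta) over the density of all 22746 probe sets (grey), on log axes in array units, with signals under 1 drawn at 1. The line marks equal signal. TUA1, TUB9 and TUB1 lie far above it, TUA6 and TUB7 closer to it, and TUB5 and TUB6 below it.

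The pollen arrays repeated each other closely for the isotypes bright in pollen. On the log2 scale with the offset they differed by 0.009 for TUA1, 0.029 for TUB1, 0.090 for TUB9, 0.123 for TUA6 and 0.230 for TUB7. The median difference was 0.238 over the brightest 7582 of the 22746 probe sets by pollen signal. TUB5 differed by 0.193 and TUB6 by 2.14, where the median was 0.325 over the dimmest 7582 and 0.794 over the 7582 between.

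By size alone, with no test, TUA1, TUB9 and TUB1 were at least 10-fold higher on both pollen arrays, 3 of the 7 isotypes. Of all 22746 probe sets, 4.24% met that rule.

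Summed over the 7 isotypes, the tubulin signal came to 34534 and 36244 for pollen and to 3498 for the seedling. With arrays at equal trimmed means, pollen was thus 9.87 and 10.4 times as high in sum. The hybridisation spikes were 5.25 and 4.69 times brighter on the pollen arrays, so scaling to them would make these folds much smaller. The alpha isotypes summed to 8.49 times and the beta isotypes to 11.8 times the seedling value on average. As a part of all signal on the array, the 7 isotypes made up 0.453% and 0.481% in pollen and 0.0869% in seedlings. Linear scaling does not change this proportion, whose contrast between the tissues was smaller than that of the sums. These sums leave out the isotypes without a probe set of their own.

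The share of each isotype in the summed tubulin signal is likewise independent of linear scaling, and no test was made on it. It is a share of brightness, not of transcripts, since probe sets differ in brightness for the same amount of RNA. Each isotype's share is compared between arrays only. The size of its change still depends on the brightness of the other probe sets in the sum. TUB9 held 49.9% and 50.6% in pollen and 12.1% in seedlings. TUA1 held 30.3% and 28.7% in pollen and 5.34% in seedlings. Together these 2 isotypes made up at least 79.3% of the sum on either pollen array and 17.4% in the seedling.

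TUA6 went the other way in share although its own signal was higher in pollen. It made up 13.2% and 13.7% of the pollen sum and 45.8% of the seedling sum, a change of -32.3 percentage points. After quantile normalisation the change was -45.0 points. With the shared alpha-tubulin probe set counted in the sum, the change was -19.9 points. TUB7 likewise fell to 2.34% and 2.62% from 12.4%, a change of -9.92 points, or -6.53 with the shared probe set.

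TUB1 had a small share in both tissues, 4.18% and 4.07% in pollen and 2.00% in seedlings. Its gain of 2.13 points was 3.38 after quantile normalisation. TUB5 and TUB6, with 11.3% and 11.1% of the seedling sum, were low in pollen. TUB5 was under the floor on both pollen arrays, which bounds its share, measured to the floor, at 0.123% and 0.117%. A bound measured to the highest controls without a target would be higher. TUB6 held up to 0.259%.

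**Figure D3:**
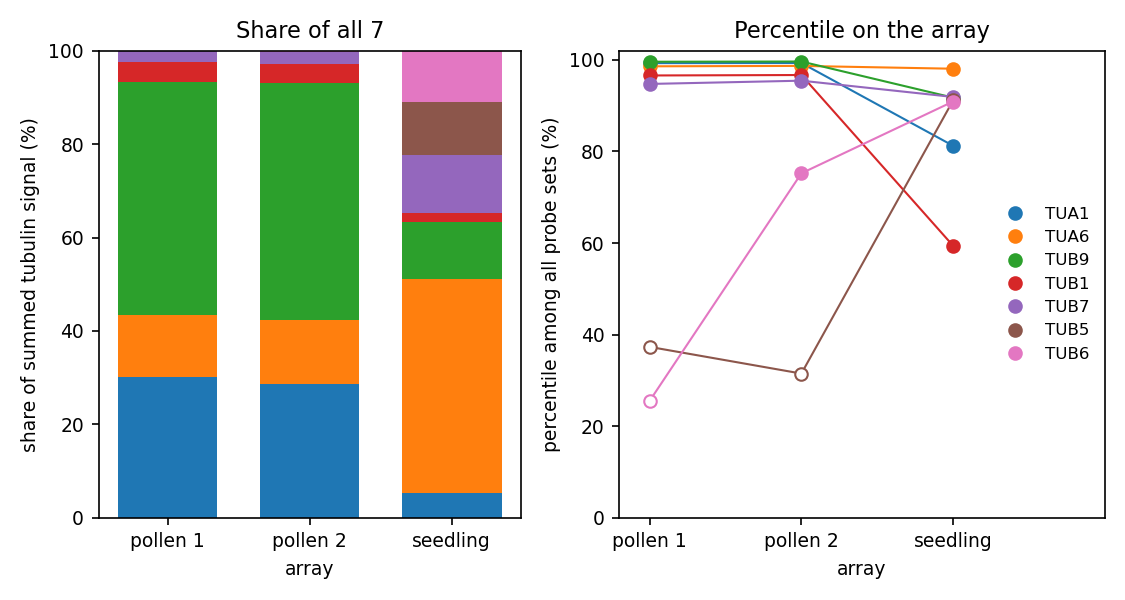
Left, the share of each isotype in the summed signal of the 7 tubulin genes, in percent, as stacked bars for each array. Right, the percentile of each isotype's signal among all 22746 probe sets of the array, with thin lines joining the same gene and open circles for signals under the floor, whose order is not interpretable. TUB9 and TUA1 fill at least 79.3% of each pollen bar and 17.4% of the seedling bar, and TUB1 is far lower in percentile on the seedling array than on both pollen arrays.

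Taken within its own class, TUA1 made up 69.6% and 67.6% of the summed TUA1 and TUA6 signal in pollen and 10.4% in seedlings. TUA6 made up the remainder. This alpha sum leaves out the shared alpha-tubulin probe set, which read 904 and 811 in pollen and 1350 in the seedling. Counting it would lower both alpha shares, most of all in the seedling. TUB9 made up 88.3% and 87.9% of the beta signal in pollen and 24.7% in seedlings. TUB1 made up 7.40% and 7.06% in pollen and 4.09% in seedlings, and TUB7 4.13% and 4.54% in pollen and 25.4% in seedlings. TUB5 and TUB6 held 23.2% and 22.6% of the seedling beta signal. The summed alpha signal over the summed beta signal, again without the shared probe set, was 0.769 and 0.735 in pollen and 1.05 in seedlings. With that probe set, each ratio would be higher, most of all in the seedling.

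Ratios between isotypes within an array were compared for the 10 pairs whose genes were above the floor on all 3 arrays. In 7 of the 10 the pollen ratio differed from the seedling ratio at least 2-fold on both pollen arrays, and in 4 at least 10-fold. The 4 set TUA1 or TUB9 against TUA6 or TUB7. The largest shift was that of TUA1 over TUB7, 30.1 and 25.4 times. By contrast, TUA1 over TUB9 moved by only 1.37 and 1.28 times, and TUA6 over TUB7 by 1.53 and 1.42 times. TUB1 differed from both isotypes highest in pollen, with shifts of 2.70 and 2.63 times for TUA1 over TUB1 and of 1.97 and 2.06 times for TUB9 over TUB1.

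Percentiles within an array do not depend on linear scaling. TUA6 stood at percentiles 98.6 and 98.7 in pollen and 98.1 in the seedling, near the top on all 3 arrays. TUA1 was at percentile 99.3 on both pollen arrays and at 81.3 in the seedling. TUB7 was at 94.8 and 95.5 in pollen and 91.9 in the seedling. TUB5 was at 91.1 in the seedling, and in pollen its signals were under the floor, where the order is that of background.

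**Figure D4:**
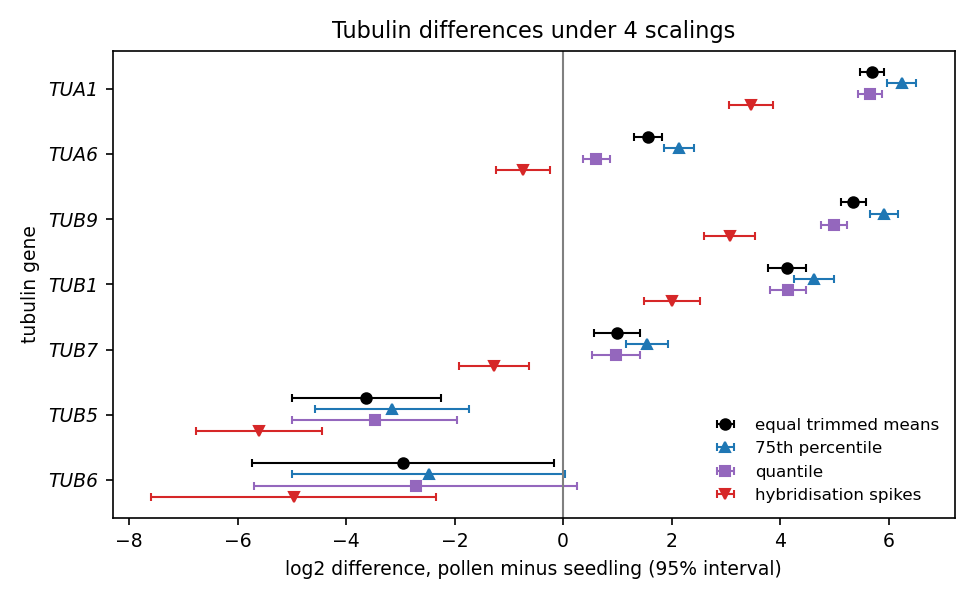
Log2 difference of each isotype, pollen minus seedling, with its 95% limma interval under 4 ways of scaling the arrays. TUA1, TUB9 and TUB1 stay above 0 and TUB5 below 0 under all 4, TUA6 and TUB7 are above 0 except with the hybridisation spikes, and the TUB6 interval crosses 0 with the 75th percentile and with quantile normalisation.

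The choice of scaling decides the direction of TUA6 and TUB7 but not that of TUA1, TUB9, TUB1 or TUB5. The 9 hybridisation spikes, RNAs added in fixed amount, were 5.25 and 4.69 times brighter on the pollen arrays. With arrays scaled to them, the log2 difference was 3.46 for TUA1, 3.07 for TUB9 and 2.01 for TUB1, and all 3 were still called higher, while the median of all tested probe sets went from -0.61 to -2.27. The 3′ to 5′ ratio of the ubiquitin control, at 2.02 and 2.42 for pollen, exceeded the seedling's 1.59, and its part in the tubulin differences was not tested. Tubulin genes are alike in sequence, and cross-hybridisation between them was not tested.

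Genes that act on microtubules were followed through fixed lists of 92 names, of which 6 had a probe set of their own and 5 were tested. None of the gamma-tubulin, severing or other alpha- and beta-tubulin names had one. Of the 5, 0 were called higher and 1 lower with limma, counts that were the same at an unadjusted p under 0.05. Over all tested probe sets 22.1% were called higher and 31.7% lower. SPR1, a microtubule plus-end protein of cell expansion, had 51.6 and 14.4 in pollen and 621 in seedlings. Both pollen signals were far under the seedling, and 1 of them was under the floor, so SPR1 entered the test through the seedling array alone. SPR1 is high there, so its call (limma adjusted p = 0.0109) is no independent support. Measured to the floor, the drop was at least 13.2-fold, and a bound measured to the highest controls without a target would be smaller.

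POR, the tubulin-folding cofactor C, had 74.4 and 72.3 in pollen and 56.0 in seedlings, and PFI, the cofactor E, had 28.8 and 103 against 79.3. TON1B, which acts in placing the division plane, had 74.3 and 132 against 70.3. MAP65-6, of a family that bundles microtubules, had 5.16 and 69.9 against 163. None of these 4 passed (limma adjusted p between 0.152 and 0.684). With arrays scaled to the spikes, all 4 were called lower in pollen, as were 66.6% of all probe sets tested at that scaling. WDL3 was not tested.

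For TUA1 and TUB9, the genes with the most similar pattern were taken from 1143 tested probe sets with a gene symbol, by the distance between their log2 differences on both pollen arrays against the seedling. Nearest to TUA1 were GH9B5 (distance 0.083), MGH3 (0.098) and HHP2 (0.335). Nearest to TUB9 were HMT-1 (0.012), CHX19 (0.092) and TET16 (0.139). Within 0.5 log2 units lay 8 genes for TUA1 and 11 for TUB9. Of the 6 named genes only HHP2 (2999 and 2411 against 44.5) and HMT-1 (3801 and 4095 against 82.7) were above the floor in seedlings as the tubulins were. HHP2 lay only just above the floor there. Its log2 difference of 5.51 was 5.885 with an offset of 1 and 4.857 with an offset of 50. For TUA1 these were 5.79 and 5.47, so the nearness of HHP2 to TUA1 also depends on the offset. For GH9B5, MGH3, CHX19 and TET16, with seedling signals under the floor, the distance is set by the offset. The log2 difference of MGH3 was 5.66, but 7.99 with an offset of 1 and 4.105 with an offset of 50, and that of TET16 was 5.36, 8.07 and 3.77, so no likeness in fold is shown for them.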

How the data were processed

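The values used are the deposited MAS5 intensities, linear and 1 per probe set, made by the authors per the submitters' processing notes. Programs named in the design text are GCOS 1.2 and Excel 2004, and no MAS5 version is stated. No detection calls were in the table, and scanner files were not used here. Arrays were scaled to an equal 2% trimmed mean (121.9), and an offset of 14.7, the 30th percentile of signals, was added before log2, which understates differences of dim genes. The test took in probe sets whose signal passed the floor in both pollen samples or in the seedling. The 64 array controls were left out. The test was limma 3.58.1 in R 4.3.3 (lmFit, eBayes with a variance trend, two-sided, Benjamini-Hochberg over all tested probe sets, threshold 0.05). Its code was also run on simulated data with a constant spread on all arrays and changes only in bright probe sets. That run does not speak to dim genes or to a seedling array that varies differently. Folds are ratios of mean signals. The number of arrays limits precision. Names came from the platform annotation and the RefSeq table of TAIR10.1, and since no genome build is named, no coordinates are given. List genes were matched by symbol or synonym, leaving out 2 false matches (CCT1, CCT2). The text names all 7 isotypes, list genes that were called (with the few other measured ones, named after their values were seen), and the 3 nearest patterns of TUA1 and of TUB9. Members and lists were chosen with earlier results of these data known.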

Additional observations from a re-analysis of the deposited data

How the results depend on the processing

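Alternatives were other scalings, offsets of 1 and 50, no filter, a floor at the controls without a target, no variance trend and leaving out each pollen array. TUA1, TUB9, TUB1 and TUB5 kept their direction and call under each alternative with a test. Scaled by the spikes, 3 isotypes were called higher and 4 lower, where 66.6% of all probe sets tested were called lower, with TUA6 at -0.74 and TUB7 at -1.28. With an offset of 50, 2 isotypes were called lower, as were 5218 of the 14815 probe sets tested. The list genes POR and TON1B, not called otherwise, had log2 differences of -1.65 and -1.60 with the spikes and were called lower there, as were MAP65-6 and PFI. PFI was at 0.065 with the 75th percentile and between -1.11 and 0.32 when 1 pollen array was left out. SPR1 and the genes with patterns nearest to TUA1 and TUB9 kept direction and call under each alternative with a test. With offsets of 1 and 50, MGH3 went from 5.66 to 7.99 and 4.105, and HHP2 from 5.51 to 5.885 and 4.857. TUA1 had 5.79 and 5.47 there. TET16 went from 5.36 to 8.07 and 3.77, against 5.39 and 5.24 for TUB9. The nearness of these genes to TUA1 and TUB9 thus depends on the offset. The list and pattern genes were given the alternatives after the data were seen. The TUA1 share difference of 24.1 percentage points was 25.8 after quantile normalisation and 58.2 within the sum of TUA1 and TUA6. That of TUB9, 38.2, was 39.2 after quantile normalisation, 63.3 within the beta sum and 40.4 with the shared probe set. Without 1 pollen array, these were 23.3 to 24.9 for TUA1 and 37.8 to 38.6 for TUB9. Of all probe sets, 3280 were called higher and 4692 lower, against 1423 and 11862 with the spikes. The causes were not tested, except that summing within a class changes the quantity. Leaving out a pollen array left no residual degree of freedom and so no test. Each gene had 1 probe set, so averaging probe sets changed nothing. No paired analysis was possible because the seedling group has 1 array with no number in common with the pollen arrays. Signals of TUB5 and TUB6 in pollen are limited by background.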
